A study of Mus musculus with 16 samples.

Results

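The kinases and adaptors that connect receptors of the TNF receptor family to alternative NF-κB were followed in blood neutrophils with and without the lymphotoxin β receptor (LTβR). The 10 genes were taken by name and not by a cutoff on their values, but with earlier results of these data known. They include the NF-κB inducing kinase NIK (Map3k14) and the adaptors Traf1, Traf2, Traf3 and Traf5. The others are the inhibitor of apoptosis proteins cIAP1 (Birc2) and cIAP2 (Birc3), and the 3 subunits of the IκB kinase complex (Chuk, Ikbkb and Ikbkg). All 10 were among the 23337 gene symbols counted and among the 9213 that were abundant enough to test. Libraries were bulk RNA-Seq libraries of neutrophils purified from blood by magnetic negative selection, from C57/Bl6 mice at 8 weeks of age. Control mice carried the floxed allele without Cre (Ltbr fl/fl, Cre negative), and LTβRΔN mice carried the same allele with Mrp8-Cre, a transgene under the Mrp8 (S100A8) promoter that acts in neutrophils and whose name in the table also carries GFP. The control genotype had 3 libraries labelled unstimulated and 4 labelled stimulated, and LTβRΔN had 4 and 5. The protocol gives a culture of 2 h in TNF (100 ng/ml), IL-6 (50 ng/ml) and GM-CSF (100 ng/ml) for both arms, with LIGHT, a ligand of LTβR, at 500 ng/ml in 1 of them. The design text names the cytokines as what differed. What was added to each single library is not in the labels, so the groups are called stimulated and unstimulated, as labelled.

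In the alternative pathway, NIK is made constantly and is destroyed as fast as it is made, because TRAF3 holds it in a complex in which TRAF2 brings the ubiquitin ligases cIAP1 and cIAP2. Ligand-bound receptors such as LTβR recruit this complex, TRAF3 is degraded, NIK accumulates and activates IKKα (Chuk), and IKKα directs the processing of p100 (Nfkb2) to p52, the partner of RelB. The classical pathway, which TNF activates within minutes, uses IKKβ (Ikbkb) and the scaffold NEMO (Ikbkg) to remove IκBα. Much of this control acts on protein stability, which RNA-Seq does not measure.

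Library totals ranged from 1094335 to 11932653 counts. Their medians were 7726335 in unstimulated and 8255790 in stimulated control libraries, and 5183740 and 2408608 in the LTβRΔN groups. Ltbr was at 84.6 to 154 CPM (counts relative to a library total scaled by TMM factors and set to 1000000) in the 7 control libraries and at 0.705 to 18.1 CPM in the 9 LTβRΔN libraries, so the target gene went with the genotype label in every library. The 7 neutrophil markers in the table (of 8 listed) were detected in every group and together made up 45706 to 76266 CPM. The T cell markers summed to 4.53 to 16.4 CPM, with Cd3e at 0 in every group and Cd3d at 2.11 to 14.9 CPM. The monocyte markers summed to 228 to 440 CPM, nearly all of it Csf1r (224 to 439 CPM), and Ccr2 and Cx3cr1 were at 0 in 3 of the 4 groups. Stimulated control replicate 3 stood apart, with 194 CPM of platelet markers and 764 CPM of immature neutrophil markers beside 5.19 to 42.7 and 40.0 to 317 CPM in the other libraries. Of the immature neutrophil markers, Elane, Mpo and Ctsg were at 0 in every group. Without this library the log2 fold change in control neutrophils was 3.68 for Traf1 (edgeR adjusted p = 0.0469) and 0.85 for Birc3 (edgeR adjusted p = 0.0193). All 9 stimulated libraries carried the index S521 in their titles, while 6 of the 7 unstimulated libraries carried S520. The treatment and the index can therefore hardly be told apart, and only 1 unstimulated library, control replicate 3, shared the index of the stimulated ones. In LTβRΔN neutrophils they coincide fully. A fit with the index takes its index term from the unstimulated control libraries alone and carries it over to LTβRΔN neutrophils. The labels do not say that the libraries of a group came from separate mice, so p-values measure the spread between these libraries. In bulk RNA, fewer cells of a kind and less RNA per cell cannot be told apart.

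Between stimulated and unstimulated control neutrophils, 2 of the 10 genes rose and 0 fell by edgeR's quasi-likelihood test at a Benjamini-Hochberg adjusted p under 0.05, where 3.48% of all tested genes passed in either direction and 2.82% passed as higher. In LTβRΔN neutrophils the count was again 2 higher and 0 lower of 10, against 3.73% of all tested genes in either direction and 2.98% as higher. Traf1 and Birc3 were the 2 genes in both genotypes. The median log2 fold change of the 10 genes was -0.15 in control and -0.024 in LTβRΔN neutrophils, beside -0.024 and -0.028 for all tested genes. No stimulated library overlapped with an unstimulated one for Traf1 and Birc3 in control neutrophils and for Traf1 alone in LTβRΔN neutrophils, while 6.58% and 4.61% of all tested genes were higher without overlap in the 2 genotypes.

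**Figure D1:**
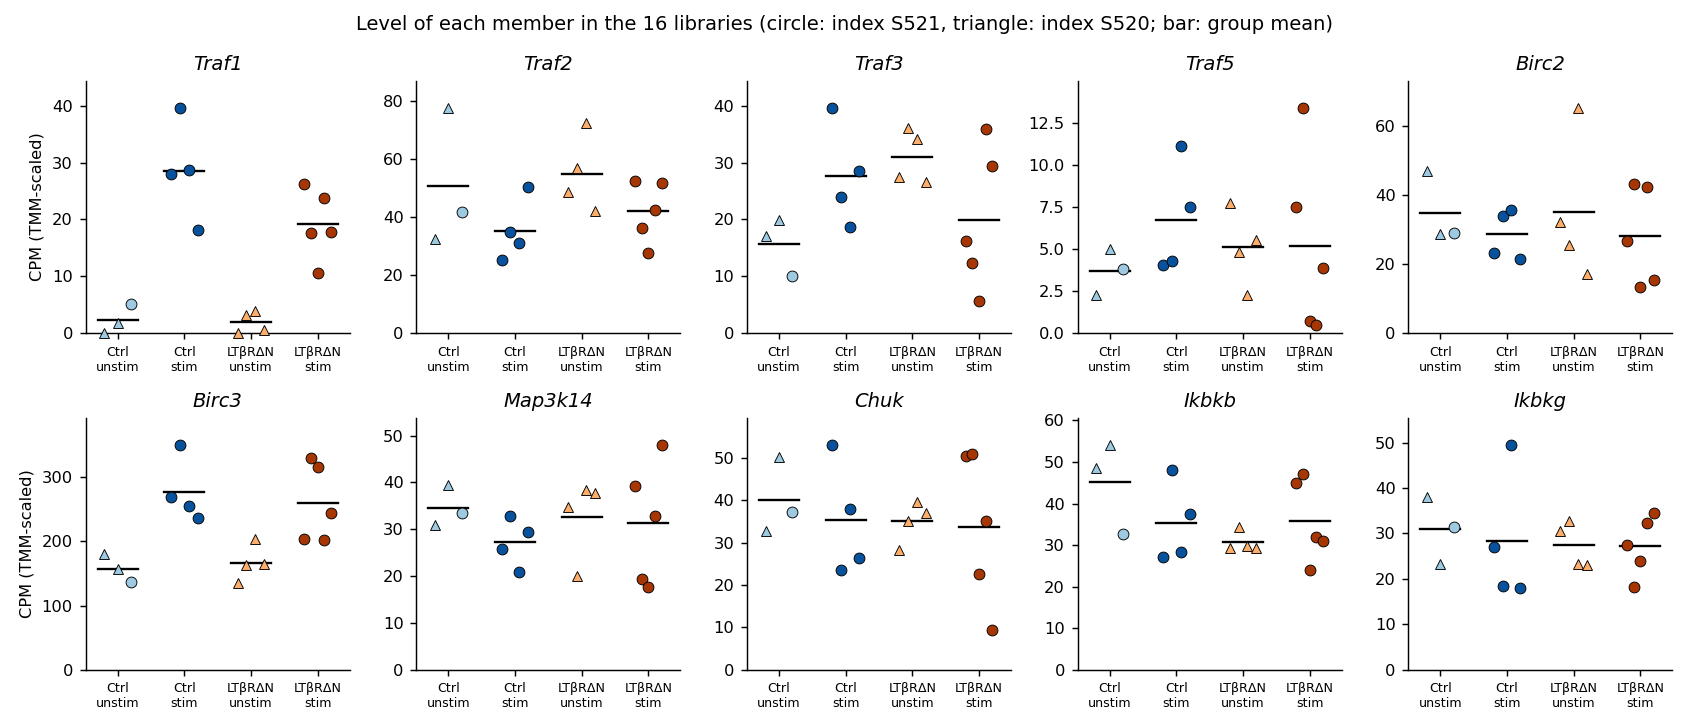
CPM of each of the 10 genes (vertical axes, linear from 0) in every library of the 4 groups, with group means as bars and the library index as the marker shape. Traf1 and Birc3 have higher levels in the stimulated groups, with Birc3 at 236 to 351 CPM in stimulated and 136 to 180 CPM in unstimulated control libraries, and the other panels show overlapping treatment groups.

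The RefSeq promoters (GRCm38.p6, 250 bases before to 50 after the transcript start, in the direction of transcription) are shown for the 2 genes that rose and for Traf3, whose levels differed most between the genotypes without stimulation. Capitals mark matches on either strand to GGG and CC set 5 bases apart, a loose form of the κB site bound by NF-κB, which 50.8% of 32851 RefSeq mouse promoters of this length hold.
Traf1, chr2:34961723-34962022, minus strand: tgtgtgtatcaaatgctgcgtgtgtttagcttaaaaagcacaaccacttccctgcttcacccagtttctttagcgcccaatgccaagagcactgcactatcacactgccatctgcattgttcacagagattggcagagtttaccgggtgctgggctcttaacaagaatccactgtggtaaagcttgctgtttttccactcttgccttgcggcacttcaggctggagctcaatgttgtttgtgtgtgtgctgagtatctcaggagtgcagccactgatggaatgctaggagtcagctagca
Birc3, chr9:7873121-7873420, minus strand: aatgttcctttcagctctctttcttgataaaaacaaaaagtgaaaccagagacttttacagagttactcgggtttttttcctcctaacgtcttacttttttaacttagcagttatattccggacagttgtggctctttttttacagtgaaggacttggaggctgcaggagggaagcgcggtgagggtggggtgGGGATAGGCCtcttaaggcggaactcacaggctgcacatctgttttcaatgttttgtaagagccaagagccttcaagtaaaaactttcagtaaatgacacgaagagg
Traf3, chr12:111166120-111166419, plus strand: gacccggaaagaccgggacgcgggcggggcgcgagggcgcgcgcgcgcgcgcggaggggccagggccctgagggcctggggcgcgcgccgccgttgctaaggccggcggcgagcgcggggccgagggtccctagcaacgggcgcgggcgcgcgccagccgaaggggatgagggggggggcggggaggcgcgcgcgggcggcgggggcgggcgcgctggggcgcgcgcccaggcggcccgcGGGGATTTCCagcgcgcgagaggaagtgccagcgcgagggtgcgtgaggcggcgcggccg
The Traf1 window holds no match. In Birc3 the match lies 57 to 48 bases before the start, and in Traf3 it lies directly before the start, from base -10 to base -1. Among the genes not shown, Map3k14, Traf2, Traf5, Chuk and Ikbkg also hold a loose match and Birc2 does not. Like Traf3, these genes did not pass the test on stimulation. The stricter κB consensus is held by 4.51% of all promoters and, among the 9 genes found in the RefSeq table, by Traf3 alone. Ikbkb was not matched.

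TRAF1 is the one TRAF protein without a RING domain and is itself a classical target of NF-κB. Traf1 (chr2:34941750-34961772 on GRCm38, minus strand) was near the limit of detection without stimulation. The 3 unstimulated control libraries had 0, 1.70 and 5.19 CPM, and the 4 stimulated ones had 28.0, 39.6, 28.6 and 18.1 CPM. The unstimulated LTβRΔN libraries had 0, 3.20, 3.85 and 0.511 CPM, and the stimulated ones had 26.2, 17.7, 10.6, 23.8 and 17.8 CPM. The lowest stimulated library, at 10.6 CPM, exceeded the highest unstimulated one, at 5.19 CPM. The 2 zeros allow up to 0.228 CPM in unstimulated control replicate 1 and 0.464 CPM in unstimulated LTβRΔN replicate 1, taking 3 counts as the limit and covering counting error only.

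Traf1 rose by 3.68 on the log2 scale (SE 0.962, edgeR adjusted p = 0.0289) in control and 3.62 (SE 0.909, edgeR adjusted p = 0.0203) in LTβRΔN neutrophils. Traf1 was over the cutoff of the filter on low counts (1.56 CPM) in all 9 stimulated and in 4 of 7 unstimulated libraries. Its counts were 0 to 37 in unstimulated and 15 to 289 in stimulated libraries. The call in control neutrophils was lost without unstimulated replicate 1 (adjusted p = 0.0724), unstimulated replicate 2 (adjusted p = 0.171) or stimulated replicate 2 (adjusted p = 0.0750), and in LTβRΔN neutrophils without unstimulated replicate 1 (adjusted p = 0.0614) or 4 (adjusted p = 0.101), all by edgeR. In a fit of the control groups alone the control call was also lost (edgeR adjusted p = 0.0877). With the number that library pairs share in their column names as a block, the call was lost in both genotypes. In control neutrophils the log2 fold change was then 4.45 (edgeR adjusted p = 0.0680). Without unstimulated replicate 3 the log2 fold change of Traf1 was 5.13 in control neutrophils and, without that of LTβRΔN, 4.85 in LTβRΔN neutrophils. With the library index in the model, the log2 fold change of Traf1 was 2.45 (edgeR adjusted p = 0.854) and 0.93 (edgeR adjusted p = 0.9999). The index term came from the unstimulated control libraries alone, so the LTβRΔN value of 0.93 is not an adjustment within LTβRΔN neutrophils. Within index S521, Traf1 was at 5.19 CPM in the 1 unstimulated control library and at 18.1 to 39.6 CPM in the 4 stimulated ones.

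cIAP2, the product of Birc3, is a ubiquitin ligase that TRAF2 recruits and, like TRAF1, is encoded by a known NF-κB target. Birc3 (chr9:7848699-7873186, minus strand) had the highest level of the 10 genes per kilobase of exon in all 4 groups, at 31.5 ± 4.40 (SD, n = 3) CPM per kb in unstimulated and 55.4 ± 10.1 (SD, n = 4) CPM per kb in stimulated control neutrophils. The unstimulated control libraries had 180, 157 and 136 CPM and the stimulated ones had 269, 351, 255 and 236 CPM. In LTβRΔN neutrophils the unstimulated libraries had 135, 162, 203 and 165 CPM and the stimulated ones had 203, 330, 316, 202 and 245 CPM. The control groups were thus separate, whereas the lowest 2 stimulated LTβRΔN libraries lay just below the highest unstimulated one.

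On the log2 scale Birc3 rose by 0.81 (SE 0.194, edgeR adjusted p = 0.0136) in control and by 0.64 (SE 0.171, edgeR adjusted p = 0.0336) in LTβRΔN neutrophils. The call in control neutrophils was lost without unstimulated replicate 2 (adjusted p = 0.0771), unstimulated replicate 3 (adjusted p = 0.111) or stimulated replicate 2 (adjusted p = 0.0644) in edgeR, and that in LTβRΔN neutrophils without unstimulated replicate 1, 2 or 4 or stimulated replicate 2 or 3 (edgeR adjusted p = 0.0852 to 0.144). With the library index in the model, the log2 fold change of Birc3 was 1.03 (edgeR adjusted p = 0.120) and 0.95 (edgeR adjusted p = 0.584), and with library totals as the only scaling it was 0.57 and 0.46 (edgeR adjusted p = 0.118 and 0.156). For Birc3, too, the LTβRΔN value with the index uses a term from the unstimulated control libraries alone. Within index S521, the unstimulated control library had 136 CPM and the 4 stimulated ones had 236 to 351 CPM.

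**Figure D2:**
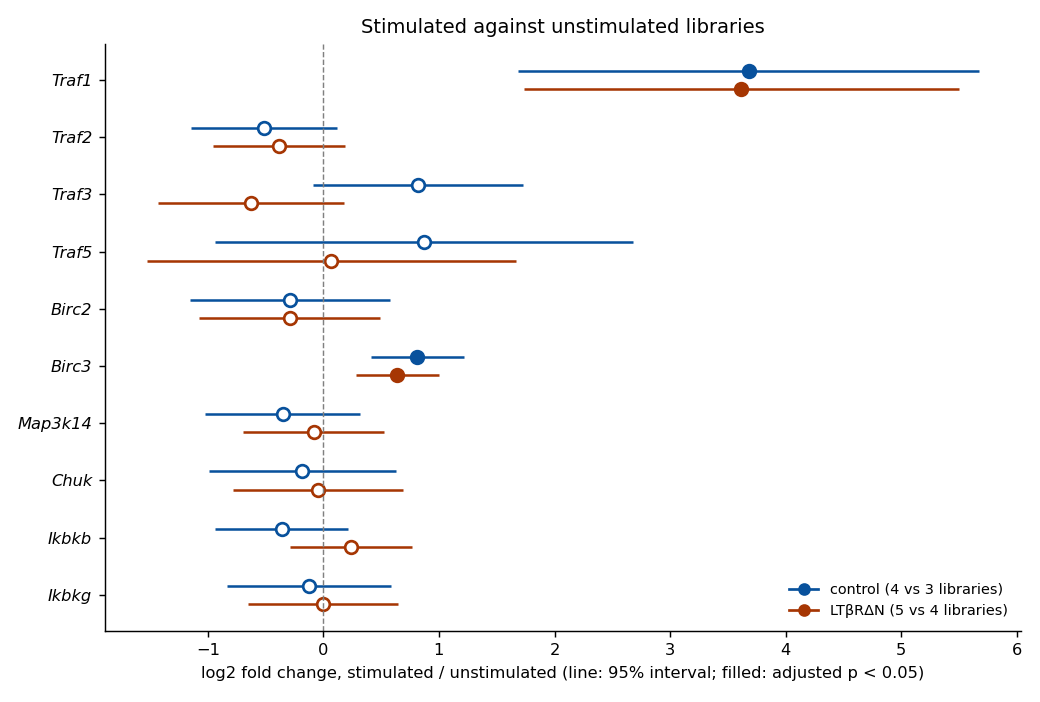
Log2 fold change of stimulated over unstimulated libraries (horizontal axis) for the 10 genes with 95% intervals, in control (4 against 3 libraries) and LTβRΔN neutrophils (5 against 4 libraries), filled where the adjusted p was under 0.05. Only the points of Traf1 (3.68 and 3.62) and Birc3 (0.81 and 0.64) are filled.

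cIAP1, encoded by Birc2 next to Birc3 on chromosome 9 (chr9:7818227-7837064, minus strand), shares its ligase activity. Birc2 was at 28.6 to 47.0 CPM in unstimulated and 21.5 to 35.6 CPM in stimulated control libraries, and at 17.1 to 65.2 and 13.4 to 43.2 CPM in the LTβRΔN groups. Its log2 fold change was -0.29 (95% interval -1.16 to 0.57) in control and -0.29 (95% interval -1.08 to 0.49) in LTβRΔN neutrophils, and neither passed the test. Within a library, Birc3 had 3.83 to 5.50 counts for each count of Birc2 in unstimulated and 7.17 to 11.6 in stimulated control neutrophils, so these groups did not overlap. In LTβRΔN neutrophils the ratio was 3.12 to 9.66 without and 4.79 to 23.6 with stimulation, and the groups overlapped. The ratio was not tested and holds the same Birc3 counts as the comparison of Birc3 between treatments. Reads that match both paralogs could be split between them or lost.

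TRAF2 is the adaptor that ties cIAP1 and cIAP2 to TRAF3. Traf2 (chr2:25517982-25546940, minus strand) had 32.5, 77.5 and 41.5 CPM in the unstimulated and 25.3, 34.6, 31.02 and 50.2 CPM in the stimulated control libraries. Its log2 fold change was -0.52 (95% interval -1.15 to 0.12) in control and -0.38 (95% interval -0.96 to 0.19) in LTβRΔN neutrophils. The groups overlapped and the differences did not pass the test. Traf1 had 0 to 0.125 counts for each count of Traf2 in the 7 unstimulated libraries and 0.346 to 1.14 in the 9 stimulated ones. This ratio, too, was not tested and holds the same Traf1 counts as the comparison of Traf1 between treatments.

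**Figure D3:**
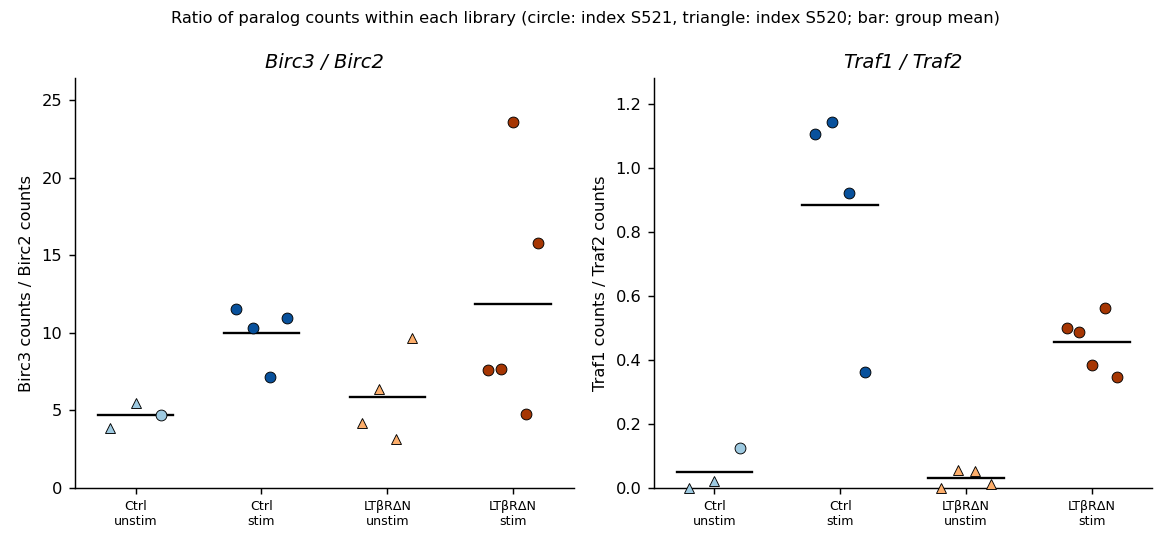
Counts of Birc3 per count of Birc2 (left) and of Traf1 per count of Traf2 (right) within each library, by group, with group means as bars and the index as the marker shape. The Traf1 to Traf2 ratio is at most 0.125 in unstimulated and at least 0.346 in stimulated libraries, while the Birc3 to Birc2 ratio overlaps between the 2 LTβRΔN groups.

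TRAF3 is the subunit of the complex that binds NIK and is degraded after LTβR is engaged. Traf3 (chr12:111166370-111267153, plus strand) had 17.04, 19.8 and 9.97 CPM in the unstimulated and 39.6, 24.0, 18.6 and 28.5 CPM in the stimulated control libraries. In LTβRΔN neutrophils it had 27.4, 36.0, 34.2 and 26.6 CPM without and 16.2, 12.3, 5.64, 35.9 and 29.4 CPM with stimulation. Its log2 fold change was 0.82 (95% interval -0.085 to 1.73) in control and -0.62 (95% interval -1.43 to 0.18) in LTβRΔN neutrophils, and both missed the threshold (edgeR adjusted p = 0.522 and 0.572). The treatment groups overlapped in both genotypes, and the stimulated LTβRΔN libraries were the most spread. Their lowest value, 5.64 CPM, was 8 counts, and their median total was the lowest of the groups. The part of depth in this spread was not tested.

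TRAF5 is close to TRAF2 in sequence and can act beside it. Traf5 (chr1:191997205-192092559, minus strand) was low, at 2.28 to 4.98 CPM in unstimulated and 4.05 to 11.1 CPM in stimulated control libraries. It was at 2.26 to 7.73 CPM in unstimulated and 0.449 to 13.4 CPM in stimulated LTβRΔN libraries, and 2 of the latter had 1 count each. At this depth its log2 fold changes were 0.87 and 0.068, with 95% intervals of -0.94 to 2.68 and -1.53 to 1.67. A change of the size of that of Birc3 was thus not detectable. In each genotype the intervals of all 8 genes that missed the threshold reach the size of the Birc3 change, as a rise, a fall or both. These genes were therefore not shown to be unchanged. The exons of Traf5 share 65 bases with Mir3473c on the same strand, and reads from these bases cannot be assigned to 1 gene. They share 205 bases with the antisense gene Gm26879, which is not among the gene symbols counted. Reads of Gm26879 from these bases could be counted for Traf5 where strand was not used in counting.

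NIK, the kinase at the centre of the pathway, is encoded by Map3k14 (chr11:103219762-103267472, minus strand). Unstimulated control libraries had 30.9, 39.5 and 33.4 CPM of Map3k14, and stimulated ones had 25.8, 32.7, 20.8 and 29.3 CPM. In LTβRΔN neutrophils it was at 34.6, 20.01, 38.5 and 37.7 CPM without and at 39.2, 19.4, 17.6, 32.8 and 48.0 CPM with stimulation. The groups overlapped in both genotypes. Its log2 fold change was -0.35 (95% interval -1.02 to 0.32) in control and -0.083 (95% interval -0.69 to 0.53) in LTβRΔN neutrophils. Counts of Traf3 for each count of Map3k14 were 0.298 to 0.552 in unstimulated control libraries and 0.707 to 1.80 in unstimulated LTβRΔN libraries. With stimulation the ratio was 0.732 to 1.53 in control and 0.320 to 1.10 in LTβRΔN libraries, and these groups overlapped. This ratio was not tested and holds the same Traf3 counts as the comparison of Traf3 between genotypes.

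The IκB kinase subunits did not pass the test in either genotype. IKKα, encoded by Chuk (chr19:44073335-44107480, minus strand), had log2 fold changes of -0.18 (95% interval -0.99 to 0.63) and -0.046 (95% interval -0.78 to 0.69). Chuk ranged from 23.5 to 53.1 CPM over the 7 control libraries and from 9.30 to 50.9 CPM over the 9 LTβRΔN libraries. Its lowest value was in stimulated LTβRΔN replicate 5, at 24 counts. IKKβ, encoded by Ikbkb (chr8:22659212-22706589, minus strand), had log2 fold changes of -0.36 (95% interval -0.94 to 0.22) and 0.24 (95% interval -0.29 to 0.77). Ikbkb was at 27.2 to 54.2 CPM in control and 24.0 to 47.0 CPM in LTβRΔN libraries. NEMO, encoded by Ikbkg (chrX:74393290-74453854, plus strand), had log2 fold changes of -0.12 (95% interval -0.83 to 0.59) and -0.0013 (95% interval -0.65 to 0.65), with 18.1 to 49.5 CPM in control and 18.2 to 34.5 CPM in LTβRΔN libraries. Exons of Ikbkg share 418 bases with G6pdx on the other strand, whose reads cannot be told apart from its own if strand was not used. Those of Map3k14 share 135 bases with 1700028N14Rik on the same strand. That gene is not among the gene symbols counted, so its reads from these bases could be counted for Map3k14.

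Between the genotypes, 0 of the 10 genes passed the test in stimulated neutrophils and 0 of 10 in unstimulated neutrophils by edgeR, where 0.0217% of all tested genes passed in each comparison. At an unadjusted p under 0.05 there were 0 of 10 genes with and 1 of 10 (Traf3) without stimulation, beside 591 and 258 of all 9213 tested genes, and DESeq2 also called 0 of 10 in both. In stimulated neutrophils the groups overlapped for all 10 genes, where 1.31% of all tested genes did not overlap in either direction. Without stimulation only Traf3 had genotype groups that did not overlap, where 5.71% of all tested genes had such groups.

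Traf3 was at 9.97 to 19.8 CPM in unstimulated control and 26.6 to 36.0 CPM in unstimulated LTβRΔN libraries, a log2 fold change of 0.98 (95% interval 0.061 to 1.90, edgeR adjusted p = 1). With stimulation the order was the opposite, at a log2 fold change of -0.47 (95% interval -1.27 to 0.33), and the genotype groups overlapped. The interaction of genotype and treatment was -1.45 (95% interval -2.66 to -0.23, edgeR adjusted p = 0.9999) for Traf3. After adjustment over all tested genes the interaction was passed by 0 of 10 genes and by 0% of all tested genes, with 1 of 10 (Traf3) and 342 of 9213 at an unadjusted p under 0.05 and 0 of 10 by DESeq2. Of the 3 unstimulated control libraries, the lowest for Traf3 was replicate 3, the one with index S521, while all 4 unstimulated LTβRΔN libraries had index S520.

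Traf1 and Birc3 had genotype log2 fold changes of -0.57 (95% interval -2.06 to 0.92) and -0.095 (95% interval -0.44 to 0.25) in stimulated neutrophils. Without stimulation these were -0.51 (95% interval -2.54 to 1.52) for Traf1 and 0.077 (95% interval -0.32 to 0.47) for Birc3. The interaction was -0.062 (95% interval -2.59 to 2.47) for Traf1 and -0.17 (95% interval -0.70 to 0.36) for Birc3. The rise of Birc3 in LTβRΔN was therefore not shown to differ from that in control neutrophils, and for Traf1 the interval spans differences of several fold in either direction. Ikbkb was at 32.7 to 54.2 CPM in unstimulated control and 29.2 to 34.4 CPM in unstimulated LTβRΔN libraries, with a log2 fold change of -0.56 (95% interval -1.15 to 0.020, edgeR adjusted p = 1). Map3k14 differed between genotypes by a log2 fold change of 0.21 (95% interval -0.40 to 0.82) with and -0.059 (95% interval -0.74 to 0.62) without stimulation.

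**Figure D4:**
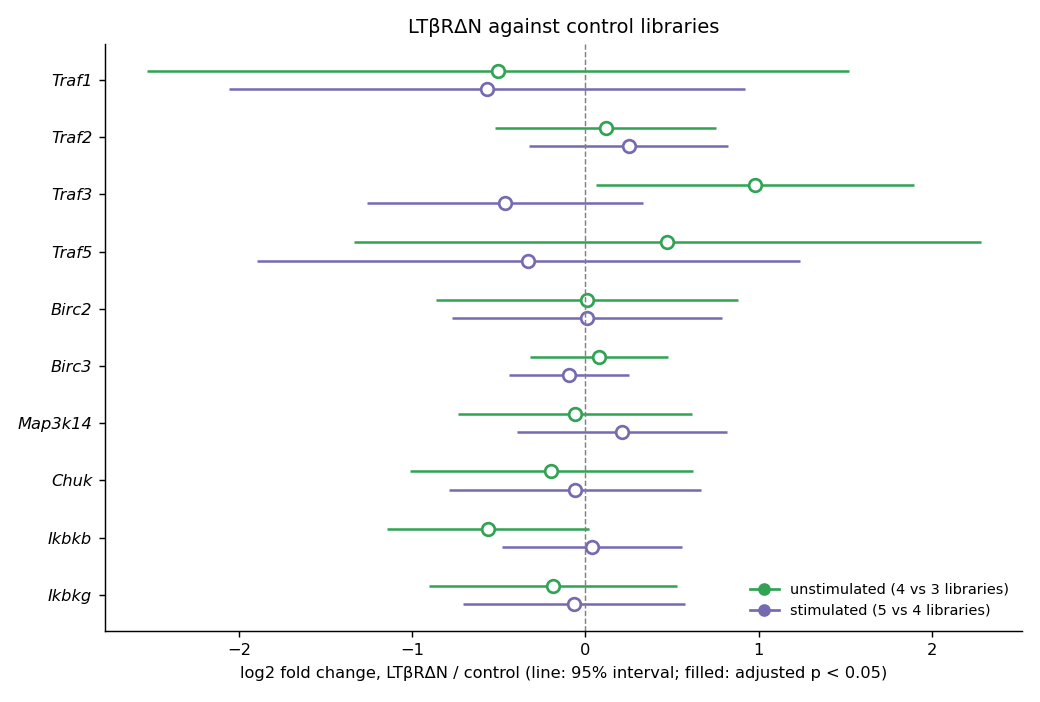
Log2 fold change of LTβRΔN over control libraries (horizontal axis) for the 10 genes with 95% intervals, without (4 against 3 libraries) and with stimulation (5 against 4 libraries). No point is filled, as none had an adjusted p under 0.05, and the interval of Traf3 without stimulation (0.061 to 1.90) is the one that does not include 0.

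Other genes of the pathway were followed in 7 lists of 76 genes, of which 63 were tested. These lists, too, were chosen with earlier results of these data known. In control neutrophils 15 of the 63 rose and 1 fell with stimulation, and in LTβRΔN neutrophils 16 rose and 0 fell, where 2.82% and 2.98% of all tested genes passed as higher. Among the IκB proteins, which hold or modulate NF-κB, 5 of 6 rose in control and 4 of 6 in LTβRΔN neutrophils (median log2 fold change 2.13 and 1.85, beside -0.024 and -0.028 for all tested genes). Nfkbia (IκBα) rose by 5.001 and 4.85, Nfkbie (IκBε) by 2.92 and 3.10, and Nfkbiz (IκBζ) by 2.38 and 2.24 on the log2 scale in the 2 genotypes. Named after their values were seen, Nfkbib rose by 1.88 and 1.45, and Nfkbid by 1.31 in control neutrophils, with a value of 0.78 in LTβRΔN neutrophils (edgeR adjusted p = 0.0605). The interaction of genotype and treatment for Nfkbid, -0.54, did not pass (edgeR adjusted p = 0.9999).

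Of the 5 NF-κB subunits, 3 rose in each genotype. Nfkb2, whose product p100 is the substrate of the alternative pathway, rose by 1.20 in control and 1.42 in LTβRΔN neutrophils on the log2 scale, and Rel rose by 1.18 and 1.81. The third was Relb, which encodes the partner of p52, in control and Nfkb1 in LTβRΔN neutrophils, both named after their values were seen. The log2 fold change of Relb was 1.26 (edgeR adjusted p = 0.0302) in control and 0.93 (edgeR adjusted p = 0.0938) in LTβRΔN neutrophils. That of Nfkb1 was 0.68 (edgeR adjusted p = 0.244) and 0.93 (edgeR adjusted p = 0.0265). The interaction of genotype and treatment was -0.34 for Relb and 0.25 for Nfkb1 and passed for neither (edgeR adjusted p = 0.9999).

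Among the ligands and receptors, 3 of 13 tested genes rose and 1 fell in control neutrophils, and 3 rose and 0 fell in LTβRΔN neutrophils. Tnf rose by 4.19 and 3.50 on the log2 scale, and Ltb, which encodes the β subunit of the LTβR ligand lymphotoxin, by 0.77 and 0.58. Lta, which encodes the α subunit, had 0 counts in every unstimulated library and a mean of 7.77 CPM in stimulated control and 4.30 CPM in stimulated LTβRΔN neutrophils. It is counted among the 3 that rose, although it entered the test only through the stimulated groups and so had to differ. The gene that fell was Tnfrsf1a, a TNF receptor, at a log2 fold change of -0.44 in control neutrophils (edgeR adjusted p = 0.0360), named after its values were seen. In LTβRΔN neutrophils its value was -0.31 (edgeR adjusted p = 0.118), and the interaction, 0.12, did not pass (edgeR adjusted p = 0.9999). Between the genotypes, Ltbr was the 1 gene of the 63 to pass the test, as lower in LTβRΔN neutrophils.

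Of 10 tested other TRAF family members and TRAF-binding adaptors, 2 rose in control and 3 in LTβRΔN neutrophils. Tifa, a TRAF6-binding adaptor, rose by 4.88 and 5.13 on the log2 scale, and Traf6 itself, the TRAF of Toll-like and IL-1 receptors, by 2.31 and 1.45. The third in LTβRΔN neutrophils was Ripk1, a kinase of TNF receptor complexes, named after its values were seen. Ripk1 had 0.75 (edgeR adjusted p = 0.0420) there and 0.35 (edgeR adjusted p = 0.659) in control neutrophils. The interaction of genotype and treatment for Ripk1, 0.39, did not pass (edgeR adjusted p = 0.9999). Of 12 other NF-κB kinases 1 rose in each genotype, Map3k8, which encodes TPL2, by 2.40 and 1.82. Of 13 genes for ubiquitin chain enzymes and their partners 1 rose in each genotype, Tnfaip3, which encodes the inhibitor A20, by 5.98 and 5.35. Of the 4 other tested IAP genes, 0 passed in control and 1 in LTβRΔN neutrophils. That gene was Birc6, at a log2 fold change of 1.01 (edgeR adjusted p = 0.0333), named after its values were seen. Birc6 was at 0.036 in control neutrophils (edgeR adjusted p = 0.992), and the interaction, 0.98, did not pass (edgeR adjusted p = 0.9999).

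**Figure D5:**
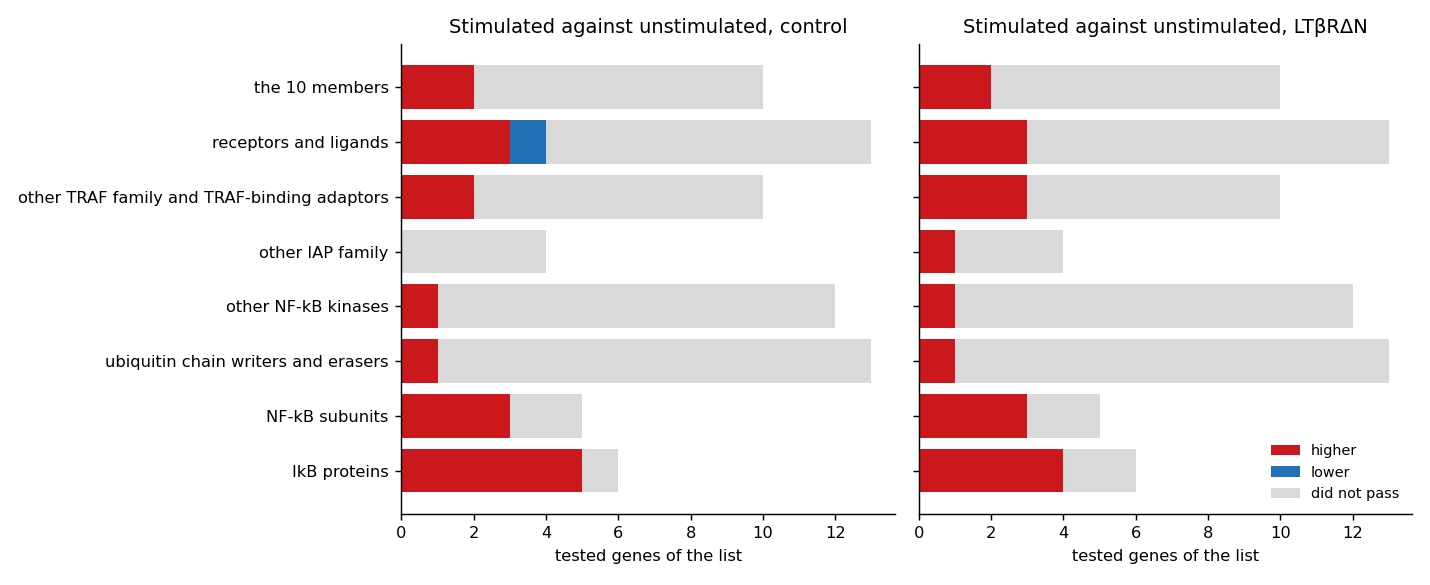
Number of tested genes of each list (horizontal axis) that were higher, lower or did not pass the test between stimulated and unstimulated libraries, in control (left) and LTβRΔN neutrophils (right). The IκB list has 5 of 6 and 4 of 6 genes higher, while the 10 kinases and adaptors have 2 higher in each genotype.

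Over all 16 libraries, the tested genes whose log2 CPM varied most like that of Traf1 were Tnf (Pearson r = 0.914), Cxcl10 (0.908) and Il23a (0.902), and those most like Birc3 were Rabgef1 (0.926), Icam1 (0.908) and Myd88 (0.900). These are descriptions across libraries that fall into 2 treatment labels and mostly into the same 2 indices, so the values reflect the split between labels as well as the spread within them.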

How the data were processed

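RNA of blood neutrophils was sequenced as 16 single-end libraries on a HiSeq2500. For each gene symbol the authors deposited counts of reads as whole numbers, not normalized. The submitters' processing notes name Bowtie 1.0.0, TopHat 1.4.1, HTSeq 0.7.1 and the build mm10. The annotation and strand setting are not given in the sources used here, and libraries that failed quality control were left out by the authors. Groups were taken from the genotype and treatment labels.

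Genes were kept by filterByExpr in edgeR 4.0.16 (R 4.3.3) (minimum count 10, minimum total 15). Counts of all 16 libraries were fitted in 1 quasi-likelihood model with TMM factors and 1 coefficient per group, with Benjamini-Hochberg adjustment over all tested genes. Standard errors were derived from the quasi-likelihood F statistic. A prior count of 2 was used for log2 CPM. The test was first run on simulated counts of independent libraries. That simulation had no index effect and no pairing of libraries, so it did not cover these. Alternatives were other scalings, other filters, a fit of the compared groups only, the library index as a covariate, a replicate block, DESeq2 1.42.0, and each library left out in turn.

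The 10 genes and all lists were chosen with earlier results of these data known. All 10 genes were named, with Ltbr, at most 3 genes per list (the smallest p in control neutrophils among genes past the threshold in both genotypes) and the 3 genes most like each member past it in both. Gene positions and exon lengths came from GENCODE M21 on GRCm38 and promoters from RefSeq on GRCm38.p6. Library pairs of 1 group differed by more than sampling noise (chi-square per degree of freedom 7.12 to 50.4 over 25 pairs), so none was counted as a repeat.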

Additional observations from a re-analysis of the deposited data

Results flagged for a closer look

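Ikbkb in unstimulated LTβRΔN replicate 2 was at 34.4 CPM, apart from the other 3 libraries of the group, of which the nearest had 29.9 CPM. This library stood out by Dixon's test, which was applied to 30 groups of values and would single out about 1 in 20 of them, or 1.5, by chance. It also had the smallest total, 1094335 counts, of which 43 were of Ikbkb. The part of depth in this value was not tested.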

How the results depend on the processing

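On stimulation, Traf1 and Birc3 kept their direction under every alternative that gave them a value, and the calls did not hold under all of them. The number of the 10 genes called was 1 in both genotypes with library totals as the only scaling and when 10 counts were required in every library, which removes Traf1 from the tested genes. It was 1 in control neutrophils when the compared groups alone were fitted, and 0 in both genotypes with the index as a covariate. Leaving out 1 library gave 0 to 2 called genes in each genotype. With the index, 157 of the 9213 genes were called in control and 79 in LTβRΔN neutrophils, in place of 321 and 344. The LTβRΔN count rests on an index term from the unstimulated control libraries alone, as index and treatment coincide in LTβRΔN neutrophils. With library totals, 201 were higher and 272 lower in control neutrophils (260 and 61 with TMM) and 216 and 293 in LTβRΔN neutrophils (275 and 69 with TMM), as the median of all genes moved to -0.27 and -0.21 on the log2 scale.

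The number in the column names is shared by 7 pairs of libraries, 1 unstimulated and 1 stimulated. Their deviations from the group means correlated at 0.021 to 0.069, 0 of 7 above 0.1. Yet 6 of 7 correlated best with their own number, so a pairing is possible although the correlations were low. The labels do not say what the number marks, and the main fit did not use it. With that number as a replicate block, 1 of the 10 genes, Birc3, was called in each genotype. Traf1 was at 4.45 in control and 4.03 in LTβRΔN neutrophils (edgeR adjusted p = 0.0680 and 0.0632), Chuk was at 0.14 and Traf5 at -0.66 in LTβRΔN neutrophils. The genotype comparisons could not be fitted with the block.

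Between genotypes, 2 genes were called in each comparison. The count with stimulation was 1 with 10 counts in every library and 14 with DESeq2. Without stimulation it was 4 with no filter, 1 with 10 counts in every library, 4 with DESeq2 and 2 to 6 with 1 library left out (6 without unstimulated control replicate 1). The interaction, with 0 genes, had 1 with the index and 0 to 2 with 1 library left out (2 without unstimulated control replicate 1).

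Signs that turned were all of differences that missed the threshold, and the cause was not tested. With the index, the log2 fold change on stimulation was 0.10 for Ikbkb in control neutrophils, and in LTβRΔN neutrophils 0.087 for Birc2, 0.10 for Chuk, 0.019 for Traf2 and 0.26 for Traf3. Without stimulation the genotype difference with the index was -0.018 for Birc3 and 0.95 for Traf1. All values with the index use an index term from the unstimulated control libraries alone. Ikbkg in LTβRΔN neutrophils was at 0.014 with DESeq2 and with its size factors, 0.023 with 10 counts in every library and 0.015 with the compared groups alone. Traf5 was at -0.099 there with library totals.

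Leaving out 1 library, the log2 fold change on stimulation ranged from -0.45 to 0.0065 for Chuk and from -0.54 to 0.051 for Ikbkg in control neutrophils. In LTβRΔN neutrophils it ranged from -0.53 to 0.20 for Birc2, -0.27 to 0.20 for Chuk, -0.10 to 0.13 for Ikbkg, -0.29 to 0.062 for Map3k14 and -0.71 to 0.36 for Traf5. The genotype difference with stimulation ranged from -0.20 to 0.037 for Birc3, -0.095 to 0.22 for Ikbkb and -0.0016 to 0.35 for Map3k14. Without stimulation it ranged from -0.035 to 0.18 for Birc3, -0.14 to 0.098 for Map3k14 and -1.74 to 0.94 for Traf1. The interaction of Traf1 ranged from -1.51 to 1.17.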
